A study of Mus musculus with 18 samples.

Results

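The nuclear-encoded subunits of the mitochondrial respiratory chain and ATP synthase were followed through the differentiation of mouse embryonic stem cells toward heart muscle. The members were taken by gene symbol from a table of 23337 genes: the Nduf genes for complex I, Sdha to Sdhd for complex II, the Uqcr genes for complex III, the Cox4 to Cox8 genes for complex IV and the Atp5 genes for complex V. This gave 83 genes, namely 36 for complex I, 4 for complex II, 8 for complex III, 18 for complex IV and 17 for complex V. The choice by symbol had some known misfits. Ndufa4 bears a complex I name but is now counted as a subunit of complex IV, and Atp5s and Atp5sl carry older names of the factors Dmac2l and Dmac2, which are not subunits of the enzyme. Cyc1, Cycs, Ndufab1 and Usmg5 belong to the chain by function but fell outside the symbols and are counted with the related genes.

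All 18 libraries came from 1 line, TBX5-FTA on the A2Lox.cre background, and all were untreated. What the letters FTA stand for is not given in the labels. There were 3 libraries for each of 6 harvests, on days 5, 6, 7, 8, 10 and 15 (D5 to D15). The first 3 harvests were labelled cardiac progenitor cells and the last 3 immature cardiomyocytes. Whether libraries of the same harvest are from separate cultures is not given in the labels, so the p-values measure no more than how these libraries vary, and that may be technical variation. The libraries of a day are called a, b and c in the order of the columns, which the labels do not tie to shared cultures. Totals ran from 5257601 to 7122093 counts, and libraries of the same day differed by more than sampling noise.

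Markers of several cell types were measured beside the subunits. Genes of the heart muscle sarcomere held 0.303% to 0.342% of counts at D5 and 0.714% to 1.20% at D15. Of the 15, 13 were called higher and 1 lower, beside 40.3% and 37.7% of all genes. The gene that fell, Tpm1, a tropomyosin made in many cell types, held 79.7% to 80.7% of these counts at D5 and 15.1% to 19.3% at D15. Without Tpm1, as chosen after seeing the data, the share was 0.0585% to 0.0673% at D5 and 0.577% to 1.02% at D15. Fibroblast and matrix genes held 0.0495% to 0.0527% at D5 and 3.60% to 4.4% at D15. Of the genes listed for other tissues with many mitochondria, Myod1, Myf5 and Pax7 (skeletal muscle) and Ucp1, Elovl3 and Adipoq (fat) had no count at D15. Other genes of the same lists were present at D15: Myh8 had 409, 490 and 804 counts and Actn3 165, 211 and 198 (skeletal muscle), and Fabp4 had 809, 598 and 546 and Cidea 31, 21 and 20 (fat). The skeletal muscle genes Myog (3, 0 and 4), Myf6 (3, 0 and 0) and Myh3 (0, 0 and 5) had few counts. So had Myh1 (5, 8 and 12), Myh2 (5, 14 and 11) and Myh4 (8, 8 and 10). Tnnt3 and Tnni2 (skeletal muscle) and Prdm16 and Dio2 (fat) had counts in every D15 library. The part of such cells in the level of the subunits was not tested. In bulk RNA, more transcript per cell and more cells of a type cannot be told apart.

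The respiratory chain passes electrons from NADH (complex I) or succinate (complex II) by way of ubiquinone to complex III, by cytochrome c to complex IV, and so to oxygen. Complexes I, III and IV pump protons out of the matrix, and ATP synthase (complex V) uses their return to make ATP. The heart depends on this system more than most tissues, and heart and skeletal muscle replace some common subunits of complex IV with muscle forms: Cox6a2 for Cox6a1, Cox7a1 for Cox7a2 and Cox8b for Cox8a. Cox4i2, a form known from lung and from the response to low oxygen, is the second form of Cox4i1.

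The subunit genes were higher at D15 than at D5 as a group. Of the 83 members 79 had enough counts to be tested. Of these 79, 71 were called higher (adjusted p under 0.05 in edgeR's quasi-likelihood test), 2 were called lower and 6 passed in neither direction. Among all 13116 genes tested, 40.3% were called higher and 37.7% lower. The median log2 fold change of the members was 0.82, with quartiles of 0.62 and 1.09, and that of all genes was 0.03, with quartiles of -0.66 and 1.00. The 3 D15 libraries lay above the 3 D5 libraries for 72 members and below them for 1. The same count was not made over all genes, so nothing particular to the members is read from it. Across the 6 days 72 of 79 members were called, beside 88.9% of all genes, so the share called over the whole course was close to the background. Most log2 fold changes lay between 0 and 1: without Cox6a2, Cox7a1, Cox8b and Cox4i2, 22 of 75 members had a log2 fold change above 1 and 49 lay between 0 and 1.

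**Figure D1:**
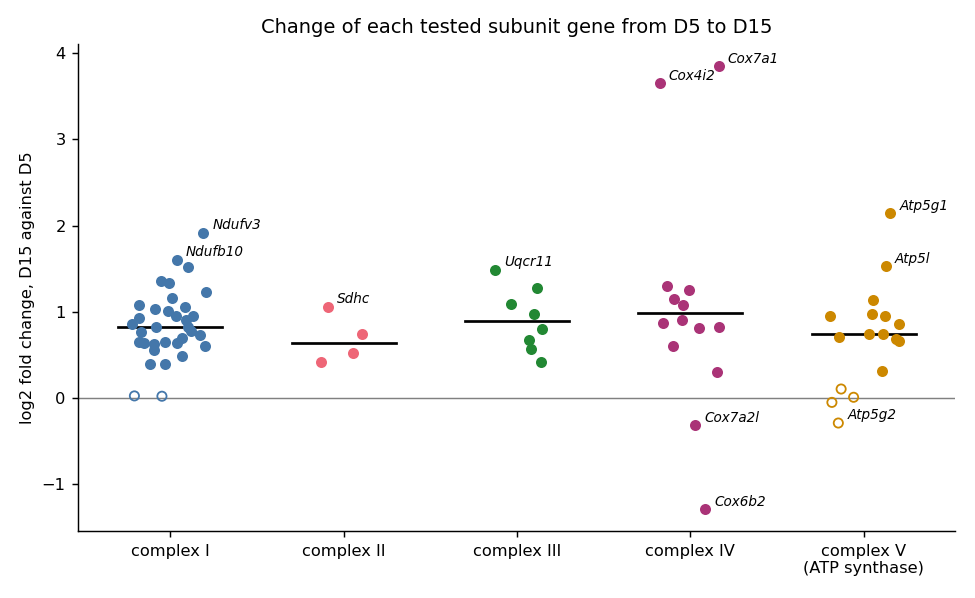
Each point is 1 tested gene, placed by complex along the horizontal axis, with its log2 fold change from D5 to D15 on the vertical axis; filled points were called (adjusted p under 0.05), open points were not, and black bars are the medians. Cox6a2 and Cox8b, without a count at D5, are left out of the points but not of the median of complex IV; 6 points are open, and the 2 filled points below 0 are Cox6b2 and Cox7a2l.

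The summed level of all members was 8082 ± 178 counts per 1000000 (CPM, with library sizes scaled by TMM; SD, n = 3) at D5. At D15 it was 13160 ± 981 CPM, which is 1.63 times the D5 level. By complex the ratio was 1.74 for complex I, 1.56 for complex II, 1.70 for complex III, 1.85 for complex IV and 1.504 for complex V. Each of these sums was higher in all D15 libraries than in all D5 libraries, for which the two-sided exact permutation test gives p = 0.1, the smallest value that 3 against 3 libraries allow. The mix of complexes shifted little: ATP synthase held 45.9% of the summed level at D5 and 42.4% at D15, and complex IV 12.4% and 14.1%. Scaling by plain library size in place of TMM lowered the median of all genes from 0.03 to -0.13 on the log2 scale and that of the members from 0.82 to 0.66.

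**Figure D2:**
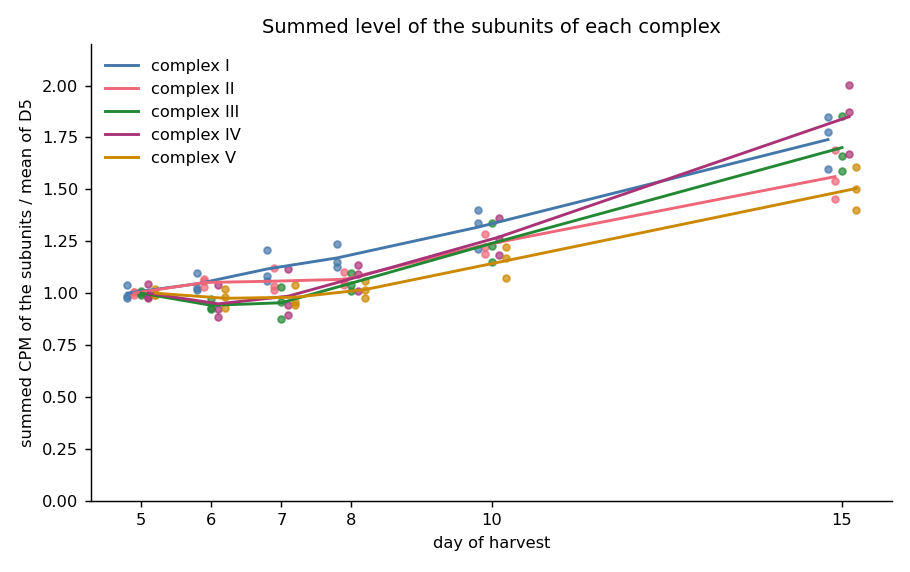
Summed CPM of the subunits of each complex, divided by its D5 mean, against the day of harvest; points are libraries (3 a day, set slightly apart by complex) and lines join the means. At D8 complex I stood at 1.17 times D5 and the other complexes at 1.02 to 1.08 times, and at D15 the complexes reached 1.504 to 1.85 at D15.

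Complex I takes electrons from NADH through a core of iron-sulfur and flavin proteins that is wrapped in many accessory subunits. Of 34 tested members 32 rose and none fell, with a median log2 fold change of 0.82. The 7 nuclear core subunits all rose, most of all Ndufs8, which carries iron-sulfur clusters (log2 fold change 1.35, SE 0.12, adjusted p = 3.13e-11). Of the 27 accessory subunits 25 rose, and the changes ran from 0.02 to 1.91. The core and accessory medians, 0.73 and 0.83, each lay within the range of the other group; this grouping was made after the values were seen.

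Ndufv3, a small accessory subunit at the NADH-binding tip, changed most. It stood at 29.4, 38.7 and 33.5 CPM in the D5 libraries and at 134.5, 135.1 and 113.9 CPM at D15, a log2 fold change of 1.91 (SE 0.10, adjusted p = 1.5e-16). All its D15 libraries were above every library of D5 to D8, and it had already risen at D6 (53.6 ± 1.42 CPM) and again at D8 (80.9 ± 11.7 CPM). Ndufb10, an accessory subunit of the membrane arm, went from 29.5 ± 0.69 to 89.8 ± 11.97 CPM (log2 fold change 1.602, adjusted p = 6.61e-14). Ndufa5, an accessory subunit of the peripheral arm, went from 23.3 ± 1.54 to 66.7 ± 7.42 CPM (1.52, adjusted p = 9.79e-14). Neither had overlapping D5 and D15 libraries.

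A pair of complex I genes passed in neither direction. Ndufa7 was at 67.2, 72.8 and 73.5 CPM at D5 and 74.5, 77.6 and 65.0 CPM at D15 (log2 fold change 0.02, SE 0.10), and Ndufs6 at 40.7 ± 2.68 and 41.4 ± 4.29 CPM (0.03, SE 0.12). Their D5 and D15 libraries overlapped. Ndufs6 shares exon bases with Mrpl36, so its reads may belong to either gene if the counting did not use strand. Ndufa4, the complex IV subunit with a complex I name, rose by 0.63 (SE 0.07), from 127.8 ± 2.40 to 198.4 ± 3.26 CPM. Another pair was under the filter. Ndufb4 had 0 to 7 counts a library, and Ndufs5 had 1 count in 1 D7 library and none in the others. Only 81.7% and 78.3% of their 50-base stretches (the read length) are found in no other transcript of the annotation, and whether reads shared with copies were dropped was not tested.

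At D15 the level per kilobase of exon ran from 5.09 CPM for Ndufb2 to 158 CPM for Ndufa1 among the tested complex I genes. Measured per kilobase of the longest transcript, Ndufb9 (218 CPM) stood above Ndufa1 (158 CPM). Ndufb2 (18.7 ± 4.07 CPM at D5, 28.6 ± 3.90 at D15; 0.61, SE 0.21) was among the less certain calls: its adjusted p of 0.0119 became 0.0639 without library a of D5 and 0.0592 without library b of D15, and its exons overlap those of Braf.

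Complex II, succinate dehydrogenase, also belongs to the citric acid cycle and has no subunit from the mitochondrial genome. All 4 genes rose. Sdhc, a membrane anchor, went from 98.4 ± 4.14 to 204.6 ± 22.2 CPM (log2 fold change 1.06, SE 0.08). Sdhd, the other anchor, went from 158.5 ± 5.60 to 265.9 ± 16.8 CPM (0.75, SE 0.07). The iron-sulfur subunit Sdhb went from 95.1 ± 6.29 to 136.9 ± 3.01 CPM (0.53, SE 0.08) and the flavoprotein Sdha from 260.2 ± 6.11 to 348.3 ± 32.3 CPM (0.42, SE 0.07). The libraries of D5 and D15 did not overlap for any of the 4. As this was not counted over all genes, nothing particular to the 4 is read from it. The adjusted p was 2.83e-13 for Sdhc, 3.53e-11 for Sdhd, 4.66e-07 for Sdhb and 1.41e-06 for Sdha. The pair of membrane anchors had larger changes than the catalytic pair, a difference that was not tested.

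Complex III passes electrons from ubiquinol to cytochrome c. All 8 members rose, with a median of 0.89. The largest rises were those of Uqcr11 from 12.1 ± 1.24 to 33.9 ± 2.89 CPM (log2 fold change 1.49, SE 0.16), Uqcrq from 36.7 ± 4.49 to 89.2 ± 7.79 CPM (1.28, SE 0.12) and Uqcrh, the hinge protein, from 119.4 ± 3.47 to 254.9 ± 11.5 CPM (1.09, SE 0.08). The adjusted p was 8.57e-10, 7.03e-11 and 1.87e-13 in that order. The log2 fold change was 0.67 for the core protein Uqcrc1, 0.57 for the core protein Uqcrc2 and 0.42 for Uqcrfs1, the Rieske iron-sulfur protein. Uqcrh was also the most abundant per kilobase of exon at D15 (206 CPM), and Uqcrb, which binds ubiquinone, the least (43.8 CPM). Only 74.5% of the 50-base stretches of Uqcrb are unique, and its symbol is also an older name of Uqcrq.

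Complex IV, cytochrome c oxidase, reduces oxygen to water, and its nuclear subunits surround a catalytic core made in the mitochondrion. The 10 common forms (Cox4i1, Cox5a, Cox5b, Cox6a1, Cox6b1, Cox6c, Cox7a2, Cox7b, Cox7c and Cox8a) all rose, by 0.30 to 1.299 with a median of 0.89. Cox8a had the largest change among them, from 59.8, 68.6 and 75.5 CPM at D5 to 169.3, 178.8 and 154.6 CPM at D15 (1.299, SE 0.14, adjusted p = 1.71e-07). Cox6a1 went from 42.7 ± 4.92 to 101.9 ± 9.79 CPM (1.25, SE 0.11), Cox7a2 from 93.4 ± 4.54 to 141.9 ± 10.9 CPM (0.60, SE 0.09) and Cox4i1 from 268.1 ± 10.9 to 475.0 ± 35.4 CPM (0.82, SE 0.07). Each of the 10 was thus more abundant at D15 than at D5. Cox4i1 shares exon bases with its neighbour Emc8, listed under the older name Cox4nb, which had 1881 counts over the D5 libraries and 666 over the D15 libraries. Per kilobase of exon Cox6b1 was the most abundant complex IV gene at D15 (369 CPM), and per kilobase of the longest transcript Cox4i1 (621 CPM).

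Both members that fell were complex IV genes. Cox6b2, known as the testis form of Cox6b1, was at 31.3, 28.8 and 32.6 CPM at D5, fell to 13.0 ± 1.49 CPM at D6 and 8.40 ± 2.19 CPM at D7, and was at 12, 12.6 and 13.3 CPM at D15 (log2 fold change -1.29, SE 0.15, adjusted p = 1.08e-08). No later library reached the level of a D5 library. Cox6b1 rose over the same days from 142.5 ± 3.86 to 260.9 ± 26.2 CPM. Cox7a2l, which joins complexes III and IV into a supercomplex, went from 67.9 ± 7.21 to 54.5 ± 6.62 CPM (-0.32, SE 0.10, adjusted p = 0.00543). Its libraries overlapped, and without library b of D15 its adjusted p was 0.0566. Of the remaining second forms, Cox8c had no count in any library and Cox7b2 had 1 count in 1 library each of D7, D8 and D15.

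The 3 muscle forms had few or no counts at D5 and rose to D15. Cox6a2 (chr7:128205435-128206387, GRCm38) had no count in the 3 D5 libraries, 5, 1 and 5 counts at D6, 34, 18 and 24 at D7, 49, 23 and 13 at D8, 86, 62 and 12 at D10, and 386, 253 and 231 at D15. Its D15 level of 50.0 ± 16.2 CPM was at least 353-fold higher than D5, with D5 set at 3 counts over its 3 libraries (adjusted p = 1.23e-06). Its exons overlap those of Itgad, which had no count at D5 or D15. Cox8b (chr7:140898945-140900446) had no count from D5 to D7, 5, 0 and 0 at D8, 10, 18 and 2 at D10, and 94, 84 and 39 at D15. At 12.6 ± 5.55 CPM it was at least 88.0-fold higher than D5 (adjusted p = 1.65e-05). Cox6a2 and Cox8b passed the filter on low counts only through the later days, so that both had to differ between days. Cox7a1 (chr7:30184144-30186078) was detected throughout: 18, 12 and 8 counts at D5, 40, 22 and 9 at D8, 79, 48 and 21 at D10, and 213, 138 and 100 at D15. It went from 1.80 ± 0.77 to 26.02 ± 10.9 CPM (log2 fold change 3.85, SE 0.49, adjusted p = 1.59e-06).

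The muscle forms were first detected on different days. Cox6a2 was seen in every library from D6, and Cox8b first in 1 library of D8 and in every library from D10. Cox7a1 was near its D5 level at D6 (1.55 ± 0.13 CPM) and did not pass the test at any step before D15. Between D10 and D15 the log2 fold changes were 2.47 (SE 0.45, adjusted p = 0.000693) for Cox6a2, 2.86 (SE 0.62, adjusted p = 0.002) for Cox8b and 1.64 (SE 0.40, adjusted p = 0.00255) for Cox7a1. Cox8b, with 10, 18 and 2 counts at D10, passed the filter on low counts through its D15 libraries. Nothing is therefore read from its p in this step.

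Cox4i2 (chr2:152754173-152765037), which is not a muscle form, was also higher at D15. It had 12, 11 and 23 counts at D5, 5, 6 and 7 at D7, 17, 15 and 2 at D8, 97, 49 and 32 at D10, and 235, 124 and 114 at D15. Its largest step was between D8 and D10 (log2 fold change 2.44, SE 0.48, adjusted p = 0.000629), in which none of the 3 muscle forms passed the test; the difference between them was not tested. The change from D5 to D15 was 3.65 (SE 0.42, adjusted p = 1.71e-07), from 2.14 ± 0.87 to 27.2 ± 12.5 CPM.

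Because the common forms rose too, the share of each pair's counts was followed, which needs no scaling of libraries. These shares are not corrected for length, so they are not shares of transcripts. Exons span 680 bases for Cox6a2 and 702 for Cox6a1, 535 for Cox7a1 and 944 for Cox7a2. They span 360 bases for Cox8b and 619 for Cox8a, 788 for Cox4i2 and 1550 for Cox4i1. Cox6a2 made up 0% of the counts of Cox6a2 and Cox6a1 at D5 (0 of 915 counts, an exact 95% upper bound of 0.402%), 7.57% ± 1.39 at D7, 11.3% ± 6.57 at D10 and 32.5% ± 7.39 at D15. Cox7a1 made up 1.88% ± 0.80 of its pair at D5, 6.58% ± 2.75 at D10 and 15.1% ± 4.47 at D15. Cox8b made up 0% at D5 (0 of 1456 counts, upper bound 0.253%), 1.64% ± 1.35 at D10 and 6.83% ± 2.63 at D15. Cox4i2 made up 0.80% ± 0.34 at D5, 2.71% ± 1.07 at D10 and 5.32% ± 2.01 at D15. The common form thus held most of the counts of each pair in every library, also at D15. These bounds cover counting error only.

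The log2 ratio of the forms, with 0.5 added to each count, differed between D15 and D5 by 8.17 for Cox6a2 to Cox6a1, 3.20 for Cox7a1 to Cox7a2, 6.07 for Cox8b to Cox8a and 2.78 for Cox4i2 to Cox4i1. The libraries of D5 and D15 did not overlap in any pair (two-sided exact permutation p = 0.1 each, the smallest possible, and 0.133 after Benjamini-Hochberg adjustment over 12 comparisons). Cox6a2 and Cox8b had no count at D5, so for their pairs this separation adds nothing to the counts themselves. With 2 added in place of 0.5 the differences of the Cox6a2 and Cox8b pairs were 6.19 and 4.10, since both had no count at D5. Between D8 and D10 the libraries overlapped in the 3 pairs with a muscle form (exact p = 0.4, 0.3 and 0.2) and not in that of Cox4i2 (exact p = 0.1).

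**Figure D3:**
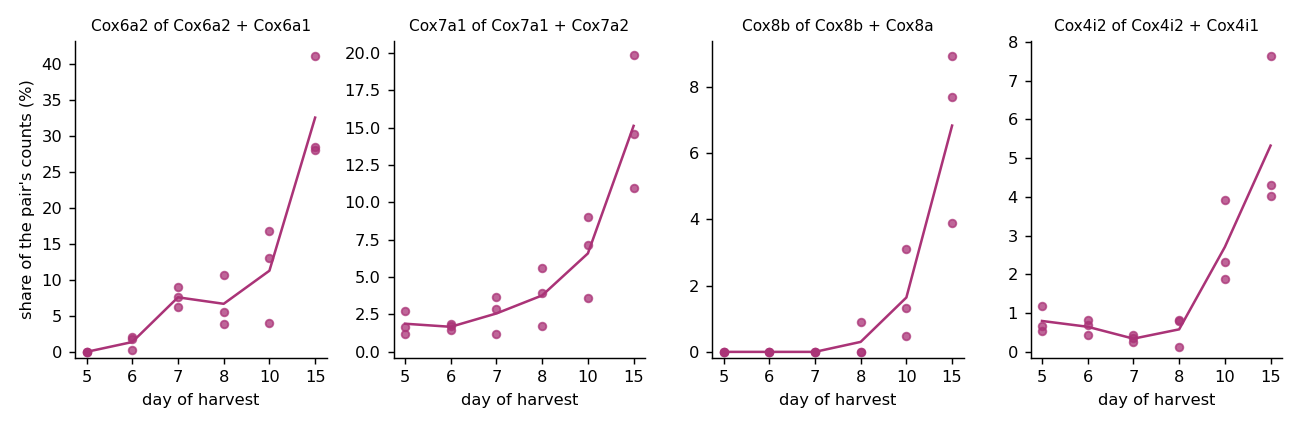
Share of a pair's counts held by the muscle or second form, in percent, against the day of harvest; points are libraries, lines join the means, the days are evenly spaced and each panel has its own vertical scale. The mean share at D15 was 32.5% for Cox6a2, 15.1% for Cox7a1, 6.83% for Cox8b and 5.32% for Cox4i2.

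The sequence before the start site is shown for the forms whose balance shifted. The stretches come from the RefSeq promoter table (GRCm38.p6), run 5′ to 3′ on the gene's strand up to the start site, and leave out bases inside the gene's GENCODE exons. Cox6a2, Cox4i1 and Cox4i2 are named only. Capitals mark matches, on either strand, to the GATA motif AGATAA, the NRF1 motif GCGCATGC, the ETS motif CCGGAAG, the ERR motif AAGGTCA, the YY1 motif AAGATGGC or the TATA motif TATAAA; overlapping matches are run together, and E-box matches (CANNTG) are left in lower case.
Cox7a1, chr7:30183921-30184143, plus strand: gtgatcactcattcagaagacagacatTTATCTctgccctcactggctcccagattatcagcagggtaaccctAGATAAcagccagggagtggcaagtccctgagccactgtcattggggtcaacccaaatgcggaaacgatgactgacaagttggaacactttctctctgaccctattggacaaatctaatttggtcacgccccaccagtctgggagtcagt
Cox8b, chr7:140900447-140900696, minus strand: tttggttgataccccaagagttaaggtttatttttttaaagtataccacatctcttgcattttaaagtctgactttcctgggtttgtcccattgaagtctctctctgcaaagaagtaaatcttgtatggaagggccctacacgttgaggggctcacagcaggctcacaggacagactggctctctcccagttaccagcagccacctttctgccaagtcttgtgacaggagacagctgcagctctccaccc
Cox6a1, chr5:115348982-115349208, minus strand: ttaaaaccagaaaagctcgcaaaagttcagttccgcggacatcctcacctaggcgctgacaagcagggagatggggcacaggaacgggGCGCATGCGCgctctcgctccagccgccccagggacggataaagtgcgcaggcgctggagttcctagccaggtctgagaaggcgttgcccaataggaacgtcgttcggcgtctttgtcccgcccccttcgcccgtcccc
Cox7a2, chr9:79759879-79760103, minus strand: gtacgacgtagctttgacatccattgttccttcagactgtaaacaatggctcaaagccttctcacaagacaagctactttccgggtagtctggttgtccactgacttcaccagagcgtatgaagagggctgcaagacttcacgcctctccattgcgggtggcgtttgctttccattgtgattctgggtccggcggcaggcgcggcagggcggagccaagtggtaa
Cox8a, chr19:7217617-7217866, minus strand: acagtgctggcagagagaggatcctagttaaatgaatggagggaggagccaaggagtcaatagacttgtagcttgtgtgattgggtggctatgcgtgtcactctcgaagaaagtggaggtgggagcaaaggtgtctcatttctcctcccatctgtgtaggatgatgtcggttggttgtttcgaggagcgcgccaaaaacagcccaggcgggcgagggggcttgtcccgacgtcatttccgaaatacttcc

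In these stretches Cox7a1 held a pair of GATA matches, 223 and 177 bases before the RefSeq start, and Cox6a1 held a pair of overlapping NRF1 matches, 162 and 160 bases before it. Cox6a1 and Cox8a each held an ETS match close to the start, 16 and 5 bases before it, which lies in or runs into bases that are not shown. The stretches of Cox8b, Cox7a2 and Cox8a hold no capitals. Promoters of 300 bases (250 before and 50 after the start) were matched to 66 of the 83 members and to 27025 genes in all. A gene was counted if any of its promoters held the motif, and genes were taken whether or not they were expressed here. The NRF1 motif occurred in 15.2% of these members and 3.05% of all these genes, and the YY1 motif in 13.6% and 3.19%. For the ETS motif the shares were 24.2% and 9.93%, and for the ERR motif 12.1% and 5.38%. The other motifs were not more frequent in the members: 10.6% and 15.7% for TATA, 69.7% and 75% for the E-box, and 9.09% and 12.7% for GATA. A match describes these letters and is not evidence of binding.

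ATP synthase has a catalytic F1 head, a rotating ring of c subunits in the membrane, and a stalk that holds the head still. Of its 17 members 13 rose and none fell, with a median of 0.74. The 5 genes of the head all rose, by 0.32 to 0.74. They include Atp5b (beta) and Atp5a1 (alpha), which had the highest D15 levels per kilobase of exon among all members. Atp5b was at 1402, 1451 and 1424 CPM at D5 and 1904, 1792 and 1638 CPM at D15 (log2 fold change 0.32, SE 0.06, adjusted p = 5.33e-05), and Atp5a1 at 1013 ± 23.9 and 1659 ± 128 CPM (0.71, SE 0.06, adjusted p = 1.03e-11). Per kilobase of exon Atp5a1 stood above Atp5b at D15 (529 and 420 CPM), and per kilobase of the longest transcript below it (620 and 928 CPM). Atp5a1 shares exon bases with Haus1.

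The 3 genes of the c ring, Atp5g1, Atp5g2 and Atp5g3, encode the same mature protein and differ in their import sequences. Atp5g1 changed most of all ATP synthase genes, from 8.0, 10.48 and 9.41 CPM at D5 to 43.8, 39.9 and 39.7 CPM at D15 (log2 fold change 2.14, SE 0.20, adjusted p = 5.11e-10). Atp5g3 went from 234.3 ± 7.95 to 426.6 ± 14.2 CPM (0.86, SE 0.08, adjusted p = 2.63e-11). Atp5g2 was low throughout, at 1.82 ± 0.55 and 1.504 ± 0.66 CPM (-0.29, SE 0.46, adjusted p = 0.564), but only 61.7% of its 50-base stretches are unique. By counts Atp5g3 was the highest of the 3 at D15, also per kilobase of exon, at 196 CPM beside 8.37 CPM for Atp5g1 and 0.90 CPM for Atp5g2. Exons span 4912 bases for Atp5g1 and 2181 for Atp5g3. Whether reads of Atp5g2 shared with copies were dropped was not tested, so its rank is uncertain.

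In the stalk and membrane part 6 of 7 genes rose. Atp5l (subunit g) went from 12.1 ± 2.18 to 35.2 ± 3.43 CPM (1.53, SE 0.15, adjusted p = 1.26e-10) and Atp5h (subunit d) from 23.3 ± 0.94 to 51.1 ± 8.65 CPM (1.13, SE 0.12, adjusted p = 7.29e-10). Atp5f1 (subunit b) was at 184.5 ± 4.08 and 198.5 ± 11.0 CPM (0.11, SE 0.08, adjusted p = 0.217). Atp5s and Atp5sl, which are not subunits, had log2 fold changes of 0.01 (SE 0.24) and -0.05 (SE 0.13) and passed in neither direction.

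More members were called higher in each of the last 2 steps than in any of the first 3. Between D5 and D6, 10 of 79 members were called higher and 3 lower, beside 18.2% and 16.4% of all genes. Of the 10, 9 were complex I genes, led by Ndufv3 (log2 fold change 0.66, SE 0.10, adjusted p = 1.05e-05) and Ndufa12 (0.43, SE 0.14, adjusted p = 0.018), and the other was Atp5g3. The 3 that fell were Cox6b2 (-1.25, SE 0.15, adjusted p = 1.56e-07), Cox7a2l (-0.39, SE 0.10, adjusted p = 0.00325) and Uqcrfs1 (-0.31, SE 0.11, adjusted p = 0.0395), the last named after its value was seen. The 10 became 4 without library a of D5, 2 without library c of D5 and 3 without library b of D6.

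Between D6 and D7, 4 members were called higher and 2 lower, beside 15.1% and 15.3% of all genes. Atp5l (0.51, SE 0.15, adjusted p = 0.011) and Ndufb10 (0.46, SE 0.11, adjusted p = 0.00219) led those that rose, and Cox6b2 (-0.63, SE 0.17, adjusted p = 0.00621) and Uqcr10 (-0.31, SE 0.11, adjusted p = 0.033) fell. Without library a of D6 or library a of D7, 2 were called higher. The number called lower was 1 without library a or b of D6 or c of D7, 0 without library b of D7 and 4 without library a of D7. Between D7 and D8, 11 were called higher and 0 lower, beside 12.6% and 11.6% of all genes. Ndufv3 (0.63, SE 0.10, adjusted p = 1.52e-05) and Cox6b2 (0.60, SE 0.18, adjusted p = 0.012) led them. The 11 became 18 without library a of D7, 2 without library b of D7, 6 without library c of D7 or a of D8, and 7 without library b of D8. Up to D8 the share of members called higher was thus below or near that of all genes.

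Between D8 and D10, 29 of 79 members were called higher and 0 lower, beside 17.3% and 13.9% of all genes. Of those called, Cox4i2 had the largest change and Cox7c the next (0.56, SE 0.18, adjusted p = 0.017). The 29 became 14 without library b of D8, 18 without library c of D8, 13 without library a of D10 and 19 without library b of D10. Between D10 and D15, 59 were called higher and 0 lower, beside 26.4% and 24.4% of all genes, with a median log2 fold change of 0.44. Leaving out any 1 library left 54 to 64. The largest rises were those of Cox8b and Cox6a2. All 8 complex III and all 4 complex II genes rose in this step, 13 of 16 complex IV genes, 23 of 34 complex I genes and 11 of 17 ATP synthase genes. In edgeR, at an unadjusted p under 0.05, 3 members were lower at D8 than D7 (Atp5g2, Atp5s and Cox7c), 0 at D10 than D8 and 1 (Atp5sl) at D15 than D10. DESeq2 and limma-voom called 0 members lower in these 3 steps. With edgeR, 1 member was called lower at D8 than D7 without library b of D6 or c of D15, and 1 at D15 than D10 without library c of D10 or a of D15. Neighbouring steps share a day's libraries.

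The highest mean was at D15 for 73 of the 79 members. The lowest was at D5 for 41 and at D6 for 22. For 54 the largest of the 5 steps was that from D10 to D15, and for 12 that from D8 to D10. The last step spans 5 days and the first 3 span 1 day each, so the sizes of steps are not rates. The counts of highest and lowest days and of largest steps were not made over all genes. Nothing particular to the members is read from them.

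**Figure D4:**
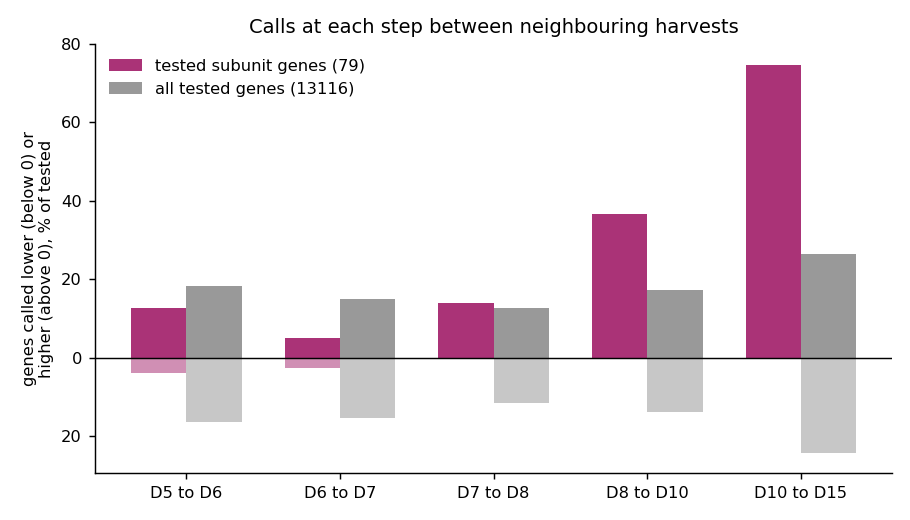
Share of tested genes called higher (above 0) and lower (below 0, paler) at each step between harvests, in percent, for the 79 subunit genes and for all 13116 genes. Of the subunit genes 36.7% were called higher between D8 and D10 and 74.7% in the last step, against 17.3% and 26.4% of all genes.

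The content of heart muscle genes differed between libraries of the same day and moved with these results. At D15 the 15 sarcomere genes held 1.20%, 0.93% and 0.71% of counts in libraries a, b and c. The summed level of the members was 14110, 13210 and 12150 CPM in the same libraries. Between the libraries with most and least sarcomere RNA, the sarcomere share differed 1.68-fold, the summed members 1.16-fold, Cox6a2 1.84-fold, Cox7a1 2.35-fold, Cox8b 2.66-fold and Cox4i2 2.27-fold. Over the 75 other members the median was 1.16-fold, with a range from 0.904 to 2.65. On 5 of 6 days the library with most sarcomere RNA also had the highest sum of members, and on 6 of 6 days that with the least had the lowest. Both counts were the same without Tpm1, where the sarcomere share of the D15 libraries differed 1.77-fold. Library a had the largest sarcomere share on 5 of 6 days and library c the smallest on 6 of 6. Other markers also differed between libraries a, b and c of D15. The endothelial genes Cdh5 (137.8, 107.6 and 60.81 CPM) and Pecam1 (99.02, 77.45 and 43.21) fell from a to c, while Tek rose (75.19, 88.97 and 103.1). Of the matrix genes Col1a1 rose (9926, 11800 and 12980) and Postn did not (338.4, 341.7 and 291.9). These 5 genes were named after their values were seen. The part of heart muscle content, or of other cell types, in the rise of the members was not tested.

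The second forms were also counted against the sarcomere genes. Cox6a2 had 1.26 ± 0.62 counts per 1000 sarcomere counts at D10 and 4.81 ± 0.40 at D15, a ratio of 3.81. Cox8b had 0.25 ± 0.20 and 1.19 ± 0.35 (ratio 4.70), Cox7a1 1.23 ± 0.25 and 2.46 ± 0.42 (ratio 1.996) and Cox4i2 1.52 ± 0.24 and 2.57 ± 0.54 (ratio 1.69). The libraries of these days did not overlap for any of the 4 (two-sided exact permutation p = 0.1, the smallest possible). Against Myh6 alone, the main myosin heavy chain of the adult mouse heart, the ratios were 2.68, 3.25, 1.34 and 1.11 in the same order, and for Cox4i2 the libraries overlapped (exact p = 0.5). Against Tnnt2 alone they were 3.72, 4.65, 1.94 and 1.64. Against the sarcomere genes without Tpm1 they were 3.39, 4.14, 1.73 and 1.46, with exact p = 0.1 for each. These 3 measures were chosen after seeing the data. Of the 15 sarcomere genes, 2 were called higher and 1 lower between D10 and D15, beside 26.4% and 24.4% of all genes. Their median log2 fold change in this step was 0.71. Their mean share of counts at D15 was 1.498 times that at D10, and 1.699 times without Tpm1.

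**Figure D5:**
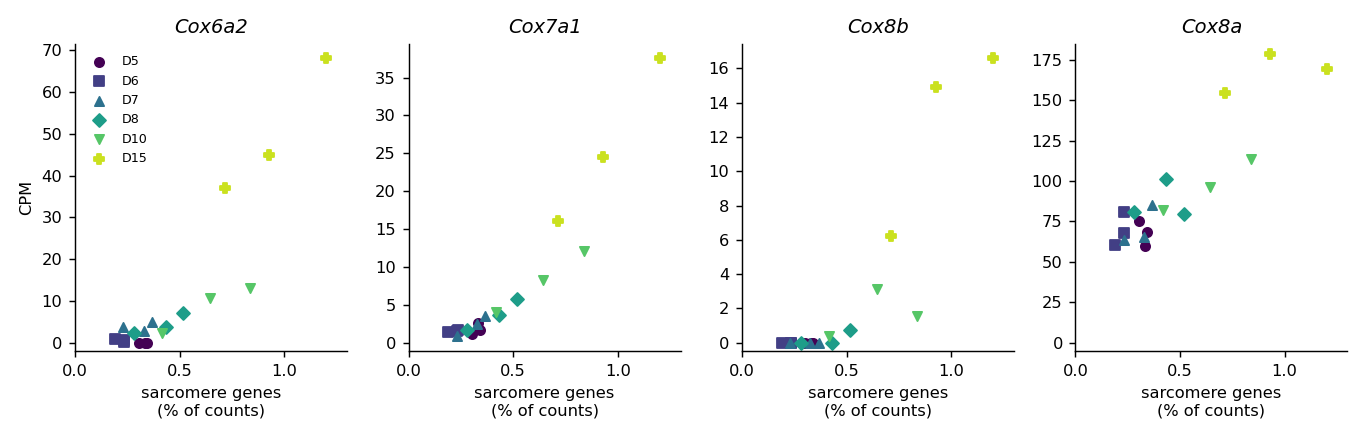
CPM of Cox6a2, Cox7a1, Cox8b and the common form Cox8a in each of the 18 libraries (vertical axes, each on its own scale) against the share of counts held by 15 sarcomere genes in percent; the marker gives the day. Within D15 and within D10 the library with the largest sarcomere share had the highest Cox6a2 and Cox7a1, and every D15 library lay above every D10 library for all 4 genes.

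Genes around the chain were counted from lists, with D15 against D5 in edgeR throughout. Of 7 subunits and carriers outside the symbols 6 were called higher, beside 40.3% of all genes, with a median of 0.80. They included Cyc1 (cytochrome c1 of complex III, 113.5 ± 5.81 to 190.5 ± 8.41 CPM, adjusted p = 2.69e-09), Usmg5 (a small ATP synthase subunit, 57.6 ± 3.73 to 107.0 ± 4.90 CPM, adjusted p = 2.53e-09) and 2010107E04Rik (60.8 ± 3.52 to 105.9 ± 11.3 CPM, adjusted p = 5.5e-09). Ndufa4l2, a relative of Ndufa4 known from the response to low oxygen and named here after its values were seen, had no count at D5 and stood at 140.0, 88.3 and 85.3 CPM at D15, at least 740-fold higher. Ndufa4l2 is among the 6 and passed the filter on low counts only through the later days. It thus had to differ, and nothing is read from the count of this list. Ndufab1, the acyl carrier protein of complex I, was at 2.75 ± 0.48 and 2.34 ± 0.28 CPM (adjusted p = 0.599). The 13 subunits encoded in the mitochondrial genome were not analysed here.

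Assembly factors, which help build the complexes but are not part of them, were called in both directions, beside 40.3% of all genes higher and 37.7% lower. For complex I 3 of 13 rose and 5 fell, with a median of 0.06; Ndufaf4 fell (-0.82, SE 0.12, adjusted p = 8.55e-07), 4930455C21Rik fell (-0.50, SE 0.11, adjusted p = 0.000106) and Ndufaf3 rose (1.00, SE 0.22, adjusted p = 0.000152). For complex IV 4 of 19 rose and 7 fell, with a median of -0.15; Fam36a rose (2.18, SE 0.25, adjusted p = 8.58e-09), 2310016M24Rik rose (0.95, SE 0.14, adjusted p = 9.05e-07) and 6330578E17Rik fell (-0.39, SE 0.06, adjusted p = 2.63e-06). Of the others, 2 of 4 complex II factors, 1 of 6 complex III factors and 1 of 3 ATP synthase factors rose and 0 fell, with Sdhaf1 (1.00, adjusted p = 1.28e-05), Ttc19 (0.48, adjusted p = 0.00231) and Tmem70 (0.64, adjusted p = 3.65e-06) as the smallest p of each. Only 15.2% of the read-length stretches of Fam36a and 31.0% of those of Sdhaf1 are unique. Their exons overlap those of Hnrnpu and E130208F15Rik in that order, so their values are uncertain. Exons of Ndufaf3 overlap those of Impdh2, and exons of Ttc19 those of Ncor1. Whether subunits and assembly factors differ was not tested beyond these counts.

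Among 15 tested regulators of respiratory genes 6 rose and 7 fell, shares near the 40.3% and 37.7% of all genes. Polg, the DNA polymerase of mitochondria, fell from 545.8 ± 34.5 to 68.0 ± 3.33 CPM (log2 fold change -3.00, SE 0.07, adjusted p = 4.74e-25), most of it by D6, where its libraries were at 168.5, 170.6 and 178.3 CPM; its exons overlap those of Fanci. Pprc1, a coactivator of the PGC-1 family, fell from 181.2 ± 14.95 to 65.7 ± 8.91 CPM (-1.46, SE 0.09, adjusted p = 5.45e-15). Esrra, the estrogen-related receptor that binds the ERR motif, rose from 11.0 ± 1.78 to 43.3 ± 1.03 CPM (1.97, SE 0.14, adjusted p = 3.67e-13). Ppargc1a (PGC-1 alpha), named after its values were seen, was at 0.15, 0.14 and 0.41 CPM at D5, 37.2, 22.2 and 12.9 at D8 and 70.8, 47.5 and 34.2 at D15 (7.64, SE 0.78, adjusted p = 6.43e-07). All its libraries from D6 on lay above its D5 libraries.

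The citric acid cycle feeds NADH and succinate to the chain. Of its 12 genes 11 were called higher at D15 than D5 and 0 lower, beside 40.3% and 37.7% of all genes. Their median was 0.54. Between D10 and D15, 12 of 12 were called higher, beside 26.4% of all genes. Ogdh (2-oxoglutarate dehydrogenase) went from 160.4 ± 11.5 to 344.0 ± 24.4 CPM (adjusted p = 1.08e-14) and Mdh2 (malate dehydrogenase) from 256.2 ± 6.61 to 425.7 ± 26.6 CPM (adjusted p = 7.55e-12).

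Markers of cell types besides heart muscle moved over the same days. Among all genes 40.3% were called higher at D15 than D5 and 37.7% lower. Of the tested genes, 10 of 10 for fibroblasts and matrix rose (Fbln2, Pdgfra and Col3a1 had the smallest p), 6 of 7 for epicardium (Wt1, Upk3b, Msln), 7 of 8 for endothelium (Eng, Esam, Emcn), 3 of 3 for fat (Fabp4, Cidea, Prdm16; 4 more were not tested) and 3 of 4 for skeletal muscle (Actn3 and Tnni2 rose and Tnnt3 fell; Myh8, named after its values were seen, had no count at D5 and 95.9 ± 29.3 CPM at D15). Smooth muscle had 3 rises and 3 falls (Mylk and Smtn rose, Tagln fell), endoderm and liver 2 and 2 (Sox17 rose, Cdh1 and Epcam fell), neural genes 2 and 3 (Ncam1 rose, Tubb3 and Nes fell), blood 1 and 1 (Runx1 rose, Tal1 fell), and pluripotent cells 0 and 2 (Pou5f1, Tdgf1). Fabp4, Cidea, Myh8, Msln and Fap had no count at D5 and had to differ to pass the filter on low counts, so nothing is read from the counts of lists that hold them. The sarcomere genes with the smallest p were Tnni3, Actn2 and Myl2. Skeletal muscle genes held 0.0128% to 0.0167% of counts at D15, fat genes 0.00871% to 0.0143%, epicardial genes 0.226% to 0.236% and endothelial genes 0.0331% to 0.0496%.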

How the data were processed

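PolyA RNA was sequenced in 18 libraries as single-end reads of 50 bases, per the labels' protocols. Raw gene counts were used as the authors deposited them. Alignment with STAR to mm10 is given in the submitters' processing notes; its version, how reads were assigned to genes, by which annotation and whether by strand are not given in the sources used here. Column names gave the day; 3 columns fitting no sample were not used.

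Genes were tested with edgeR 4.0.16 (R 4.3.3; filterByExpr, TMM, robust quasi-likelihood fit of a mean per day over all 18 libraries, 12 residual degrees of freedom). Benjamini-Hochberg adjustment ran over 13116 genes, and calls were made under 0.05. Simulated data had 200 of 13116 genes changed on 1 day and the others equal on all days. For D15 against D5, 73.1%, 82.1% and 95.5% of genes changed 1.5-, 2- and 4-fold were recovered, and 4.02% of calls were false. Of the calls simulated for D10 against D8 and D15 against D10, 6.86% and 7.39% were false, above the threshold of 0.05. In the real data 78.0% of all genes were called for D15 against D5, so these rates need not hold there. A biological coefficient of variation of 8.27% and the totals set the precision.

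Pair ratios and sums took exact permutation tests. Positions and lengths are from GENCODE M21, with lengths for 82 members; Atp5o was left without one. Exons of 27 members overlap another gene, and 6 have under 80% unique 50-base stretches; their values are uncertain.

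Members, the 20 gene lists (174 of 187 entries found, 20 by an older symbol) and the tests were chosen with earlier results of these data known. Named were the isoform pairs, the 3 largest rises and falls and the highest and lowest level per length in each complex, the Sdh genes, the 2 largest rises and falls of each step, members under the filter, and the 3 smallest p of each list; some genes are not reported here by name. Alternatives were DESeq2 1.42.0, limma-voom (limma 3.58.1), other scalings, filters and added counts, and each library left out.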

Additional observations from a re-analysis of the deposited data

How the results depend on the processing

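No paired analysis was possible because the columns carry no replicate number of the labels, so no replicate block could be fitted. The call across days, the number of members higher at D15 than D5 (71) and the median log2 fold change kept their direction under RLE, upper quartile and member-free TMM scaling, DESeq2, limma-voom and both other filters; the median ran from 0.79 to 0.87 with each library left out. A required fold of 1.5 left 49 higher and 1 lower for D15 against D5, 0 higher and 1 lower for D6 against D5, 0 and 0 for D7 against D6, 0 higher for D8 against D7, 1 higher for D10 against D8 and 6 higher for D15 against D10. Leaving out the members with overlapping exons, which means fewer genes, gave 47 higher for D15 against D5, 2 for D7 against D6 and 38 for D15 against D10. With the compared days fitted alone 1 member was lower at D8 than D7, and with upper quartile scaling 1 was lower at D15 than D10; the cause was not tested. Leaving out each library gave 1 to 2 lower for D15 against D5, 2 to 10 higher for D6 against D5, 2 to 6 higher and 0 to 4 lower for D7 against D6, 2 to 18 higher and 0 to 1 lower for D8 against D7, 13 to 32 higher for D10 against D8 and 0 to 1 lower for D15 against D10. The log2 ratio differences of Cox6a2 and Cox8b to their partners, 8.17 and 6.07, were 6.19 and 4.10 with 2 counts added and 9.80 and 7.75 from summed counts, because both had no count at D5. The log2 ratios of summed CPM for complexes I to V were 0.64, 0.48, 0.61, 0.73 and 0.43 by plain library size, and means of log2 CPM gave 0.91, 1.69 and 0.71 for complexes III, IV and V. With a fold of 1.5 required, those that lost the call of D15 against D5 included Atp5b, Cox7a2, Cox7a2l, Cox7c, Ndufb2, Sdha and Sdhb. Genes with few counts, such as Atp5g2, Cox8b and the D5 libraries of Cox7a1, are limited by depth.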
